A study of Mus musculus with 8 samples.

Results

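The Bcl2 family decides at the mitochondrial outer membrane whether a cell lives or dies. Its antiapoptotic proteins hold the pore-forming effectors in check, and the BH3-only proteins, which answer to growth factor loss, DNA damage or death receptors, release that brake. Developing T cells are known to depend on Bcl2, Bcl2l1 and Mcl1 for survival, and Bcl2l11 is known for killing lymphocytes that lose cytokine support. The genes described here are 10 named members of this family, chosen by symbol: Bcl2, Bcl2l1 and Mcl1 (antiapoptotic), Bax and Bak1 (effectors), and Bcl2l11, Bid, Bbc3, Pmaip1 and Bmf (BH3-only). Of these, 9 genes had a probeset listed for exactly 1 gene, each with 1 probeset, among the 21789 such probesets (19938 genes) on the arrays. Bax was not analysed here.

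The sorted mouse cells were of 3 kinds, profiled after 4 days in which bone marrow lymphoid primed multipotent progenitors were grown on OP9-DL4, a stromal line that expresses the Notch ligand DL4, with IL1 (as the labels spell it) at 1 ng/ml and Flt3L at 5 ng/ml in 20% FCS. The seeded progenitors were themselves sorted as Flt3 high. The sorts were T lineage cells (Thy1+CD25+) from Tcf7+/+ cultures (2 replicates), lineage-negative cells (Mac1-Gr1-Thy1-CD25-, called LN here) from Tcf7-/- mice that lack the transcription factor Tcf1 (3 mice, called deficient), and LN cells from Tcf7+/+ mice (3 mice, called wildtype). Both genotypes are labelled as a line backcrossed for about 6 generations and kept on a mixed background. Tcf7-/- cultures gave no T lineage cells, so that sort exists for the wildtype alone and stage cannot be compared between genotypes. Values are the deposited log2 levels per probeset, differences come from limma fitted to all 8 arrays, and a gene is said to have risen or fallen where its Benjamini-Hochberg adjusted p over all 21789 probesets was under 0.05. Arrays are numbered by their replicate number.

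T lineage cells carried more Bcl2l1 and Bcl2 transcript and less Mcl1, Bcl2l11 and Pmaip1 transcript than LN cells of either genotype. In bulk samples such as these, fewer cells of a type and less RNA per cell cannot be told apart. Between deficient and wildtype LN cells, 0 of the 9 genes passed the test, where 0.00459% of all probesets (1 of 21789) passed. Against wildtype LN cells, 5 of the 9 genes passed in T lineage cells, 2 higher and 3 lower, where 18.0% of all probesets passed, 7.66% higher and 10.4% lower. Against deficient LN cells, the 2 higher and 3 lower genes were the same 5, where 14.1% of all probesets passed, 5.98% higher and 8.16% lower. The T lineage arrays did not overlap the wildtype LN arrays for 8 of the 9 genes, where 47.8% of all probesets did not overlap, nor the deficient LN arrays for 7 of 9, where 40.7% did not. These comparisons share the T lineage arrays and are not independent of each other.

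The promoters of 3 of these genes are shown because they are the clearest rise, the clearest fall and the gene that names the family. Each is the stretch of 250 bases before a transcript start, the furthest upstream of those listed for the gene in the RefSeq promoter table used (GRCm38.p6), read 5′ to 3′ on the gene's strand. Bcl2l1 (minus strand) is at chr2:152831729-152831978, inside the annotated span of the gene, which reaches further upstream, to 152833803. Bcl2l11 (plus strand) is at chr2:128125788-128126037 and Bcl2 (minus strand) at chr1:106714291-106714540, each directly before the annotated gene. Capitals mark the only match found.
Bcl2l1: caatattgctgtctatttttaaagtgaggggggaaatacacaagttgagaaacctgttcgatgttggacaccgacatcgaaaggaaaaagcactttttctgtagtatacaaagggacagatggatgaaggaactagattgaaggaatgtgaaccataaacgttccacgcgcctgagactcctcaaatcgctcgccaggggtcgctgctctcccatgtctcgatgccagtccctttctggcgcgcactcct
Bcl2l11: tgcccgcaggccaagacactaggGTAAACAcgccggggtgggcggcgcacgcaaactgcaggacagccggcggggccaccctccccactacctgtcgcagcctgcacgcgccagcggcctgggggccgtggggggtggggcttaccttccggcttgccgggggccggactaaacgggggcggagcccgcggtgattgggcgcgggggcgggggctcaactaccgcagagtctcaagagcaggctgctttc
Bcl2: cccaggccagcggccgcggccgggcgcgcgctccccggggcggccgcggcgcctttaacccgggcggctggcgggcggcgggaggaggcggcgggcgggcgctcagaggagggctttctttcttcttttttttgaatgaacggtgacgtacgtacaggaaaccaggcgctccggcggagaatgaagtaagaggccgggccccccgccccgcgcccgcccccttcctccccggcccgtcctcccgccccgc
Both strands were searched for CTTTGAT (a form of the TCF/LEF motif), TTCNNNGAA (the STAT motif) and TGTTTAC (the forkhead, or FOXO, motif), and no matches overlapped. Of 27025 stretches of the same kind over all genes, 3.26% held the TCF/LEF letters, 7.14% the STAT letters and 3.06% the FOXO letters. The match in Bcl2l11 is the FOXO motif on the opposite strand, and it begins 227 bases before the start. Of the 9 members with an entry in the table, Bax included and Pmaip1 not, 1 held the FOXO letters and 0 held either of the others. GC content was 47.6% for Bcl2l1, 72% for Bcl2l11 and 74.8% for Bcl2.

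The antiapoptotic genes did not move together. Bcl2l1 (chr2:152758732-152833803), which encodes Bcl-xL, stood at 8.74 and 8.75 in T lineage cells, 7.37, 7.51 and 7.88 in deficient LN cells, and 7.60, 7.34 and 7.51 in wildtype LN cells. Both T lineage arrays lay above all 6 LN arrays, and the LN genotypes overlapped. It rose 2.40-fold in T lineage against wildtype LN cells (log2 difference 1.26, SE 0.14, 95% interval 0.96 to 1.56, adjusted p = 8.79e-05). The rise against deficient LN cells was 2.23-fold (log2 difference 1.16, SE 0.14, adjusted p = 0.000194). No alternative ended either call. This was the largest difference of the 9 genes in size.

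**Figure D1:**
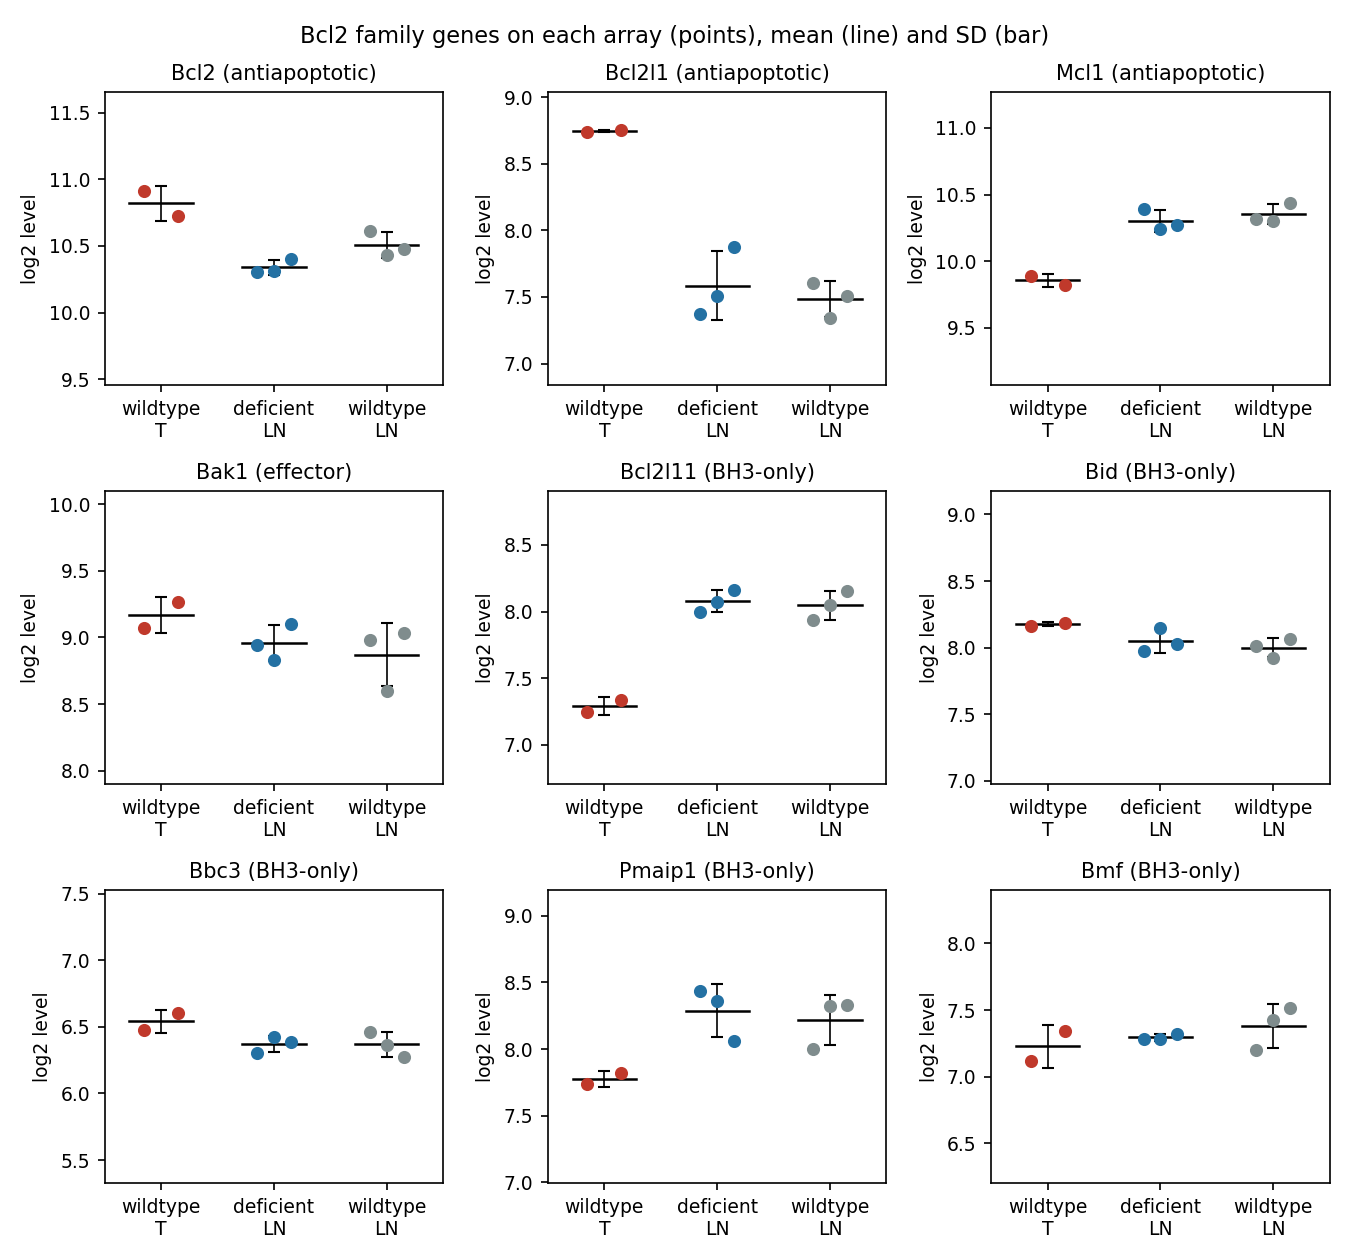
Log2 level (vertical axis, the same span in every panel) of the 9 measured Bcl2 family genes in T lineage cells (2 arrays), deficient LN cells (3 arrays) and wildtype LN cells (3 arrays). Points are arrays, lines are group means and bars are the SD. Bcl2l1 is at 8.74 and 8.75 on the T lineage arrays and at most 7.88 on the LN arrays, Bcl2l11 is at most 7.34 on the T lineage arrays and at least 7.94 on the LN arrays, and the genotypes overlap in every panel but that of Bcl2.

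Bcl2 (chr1:106538176-106714290), the founding member of the family, stood at 10.91 and 10.73 in T lineage cells, 10.30, 10.31 and 10.41 in deficient LN cells, and 10.61, 10.43 and 10.47 in wildtype LN cells. The groups did not overlap, in the order T lineage, wildtype LN, deficient LN. It rose 1.24-fold in T lineage against wildtype LN cells (log2 difference 0.31, SE 0.09, 95% interval 0.12 to 0.51, adjusted p = 0.033). The rise against deficient LN cells was 1.39-fold (log2 difference 0.48, SE 0.09, 95% interval 0.28 to 0.68, adjusted p = 0.00423). The first call was lost without wildtype LN array 2 (0.27, adjusted p = 0.105), wildtype LN array 3 (0.30, 0.0963) or T lineage array 1 (0.22, 0.26), when all probesets of the table were tested (0.0699) and when only the compared groups were fitted (0.0533). The second had an adjusted p of 0.0507 (difference 0.39) when T lineage array 1 was left out.

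Mcl1 (chr3:95656944-95663179), a short-lived antiapoptotic protein, went the other way. Its levels were 9.89 and 9.82 in T lineage cells, 10.39, 10.24 and 10.27 in deficient LN cells, and 10.32, 10.30 and 10.44 in wildtype LN cells. Both T lineage arrays lay below every LN array, while the LN genotypes overlapped. Mcl1 fell 1.41-fold against wildtype LN cells (log2 difference -0.50, SE 0.08, 95% interval -0.68 to -0.32, adjusted p = 0.0016) and 1.36-fold against deficient LN cells (-0.45, SE 0.08, adjusted p = 0.00402), and no alternative ended these calls.

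Of the effectors only Bak1 (chr17:27019812-27028627), which forms pores in the outer mitochondrial membrane, was measured. It stood at 9.07 and 9.26 in T lineage cells, 8.94, 8.83 and 9.10 in deficient LN cells, and 8.98, 8.60 and 9.03 in wildtype LN cells. The T lineage arrays were above the wildtype LN arrays and overlapped the deficient ones. The log2 difference was 0.30 against wildtype LN cells (95% interval 0.0024 to 0.59, adjusted p = 0.166) and 0.21 against deficient LN cells (adjusted p = 0.363), so Bak1 did not pass.

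Among the BH3-only genes, 2 of 5 fell and 0 rose in T lineage cells, against wildtype LN cells (10.4% of all probesets lower, 7.66% higher) and against deficient LN cells (8.16% lower, 5.98% higher). The fall of Pmaip1 was lost under several alternatives. Bcl2l11 (chr2:128126038-128162547), which encodes Bim, stood at 7.24 and 7.34 in T lineage cells, 7.999, 8.07 and 8.16 in deficient LN cells, and 7.94, 8.05 and 8.15 in wildtype LN cells. T lineage arrays were the lowest 2 of the 8, and the LN genotypes interleaved. Bcl2l11 fell 1.69-fold against wildtype LN cells (log2 difference -0.76, SE 0.09, 95% interval -0.95 to -0.56, adjusted p = 0.000156). It fell 1.73-fold against deficient LN cells (-0.79, SE 0.09, adjusted p = 0.000147). Every alternative kept both calls.

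Pmaip1 (chr18:66458604-66465558), which encodes Noxa, a BH3-only protein that binds Mcl1, stood at 7.73 and 7.82 in T lineage cells, 8.44, 8.36 and 8.06 in deficient LN cells, and 7.999, 8.32 and 8.33 in wildtype LN cells. The T lineage arrays were again below all LN arrays, with a wider spread among LN arrays of each genotype (SD 0.20 in deficient and 0.19 in wildtype LN cells, n = 3 each). It fell 1.36-fold against wildtype LN cells (log2 difference -0.44, SE 0.13, 95% interval -0.73 to -0.15, adjusted p = 0.0388) and 1.43-fold against deficient LN cells (-0.51, SE 0.13, adjusted p = 0.0242). These calls were fragile. Against wildtype LN cells it did not pass with deficient array 2 left out (-0.44, adjusted p = 0.0521), wildtype LN array 2 (-0.39, 0.117) or 3 (-0.39, 0.121), or T lineage array 1 (-0.40, 0.184) or 2 (-0.48, 0.1), after a second quantile normalization (-0.37, 0.0828), with all probesets tested (0.102) and with a replicate block (-0.47, 0.0586). The fall against deficient LN cells did not pass with deficient array 1 left out (-0.44, 0.0808) or 2 (-0.47, 0.0659), or T lineage array 1 (-0.47, 0.132) or 2 (-0.55, 0.0751), with all probesets tested (0.0811) and with array weights (-0.43, 0.0683).

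The other 3 BH3-only genes did not pass in either comparison. Bid (chr6:120893119-120917062), which caspase-8 cleaves to link death receptors to mitochondria, stood at 8.16 and 8.19 in T lineage cells, 7.97, 8.15 and 8.03 in deficient LN cells, and 8.01, 7.92 and 8.07 in wildtype LN cells. Its log2 difference was 0.17 against wildtype (95% interval -0.01 to 0.36, adjusted p = 0.188) and 0.13 against deficient LN cells (adjusted p = 0.379), with both T lineage arrays above all LN arrays. Bbc3 (chr7:16308398-16318334), which encodes the p53-responsive protein Puma, stood at 6.48 and 6.60 in T lineage cells, 6.31, 6.42 and 6.39 in deficient LN cells, and 6.46, 6.37 and 6.27 in wildtype LN cells. Its T lineage arrays too were the highest 2 of the 8, by a log2 difference of 0.17 against either LN group (adjusted p = 0.208 against wildtype and 0.245 against deficient LN cells). Bmf (chr2:118528757-118549686), a BH3-only protein held by the cytoskeleton, stood at 7.12 and 7.34 in T lineage cells, 7.28, 7.28 and 7.32 in deficient LN cells, and 7.20, 7.43 and 7.52 in wildtype LN cells, and all 3 groups overlapped. The differences of Bmf were -0.15 against wildtype (adjusted p = 0.382) and -0.07 against deficient LN cells (adjusted p = 0.747).

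**Figure D2:**
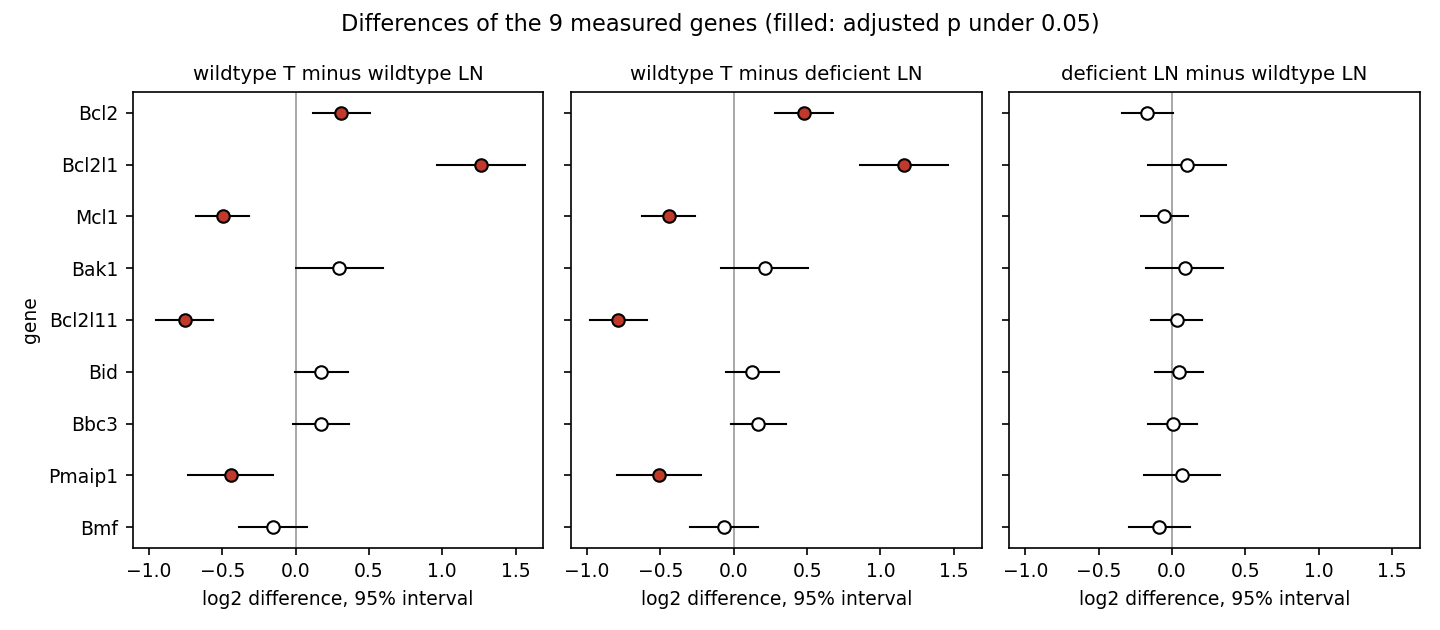
Log2 difference (horizontal axis) of each of the 9 genes with its unadjusted 95% interval, for T lineage minus wildtype LN, T lineage minus deficient LN and deficient minus wildtype LN cells; filled points passed the test. Bcl2 and Bcl2l1 lie to the right of 0 and Mcl1, Bcl2l11 and Pmaip1 to the left in the first and second panels, and the 9 intervals of the third panel all reach 0.

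Loss of Tcf1 was not accompanied by a detected change in any of the 9 genes in LN cells. With limma, 0 of 9 passed and 0 of 9 had an unadjusted p under 0.05, where 0.00459% of all probesets (1 of 21789) passed and 4.92% had an unadjusted p under 0.05. The differences, deficient minus wildtype, ran from -0.17 for Bcl2 to 0.10 for Bcl2l1, with a median of 0.03 beside -0.01 over all probesets. The 95% intervals of the 9 genes, taken one gene at a time, reached 0.37 in size at most, for Bcl2l1 (-0.17 to 0.37, a fold of 0.89 to 1.29). For each of the 9 genes, differences within its interval are not excluded by these 3 arrays a group.

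Bcl2 was the 1 gene whose genotypes did not overlap, with all 3 deficient arrays below all 3 wildtype LN arrays, where 9.95% of all probesets did not overlap. Its difference of -0.17 (95% interval -0.34 to 0.01) had an unadjusted p = 0.0605 and an adjusted p = 0.999 by limma. For the other 8 genes the genotypes overlapped. Their differences were 0.10 for Bcl2l1, 0.09 for Bak1, 0.07 for Pmaip1, 0.05 for Bid, 0.03 for Bcl2l11, 0.0050 for Bbc3, -0.05 for Mcl1 and -0.09 for Bmf, each at an adjusted p of 0.999. Leaving out single arrays turned the sign for Bcl2l1, Bak1, Bcl2l11, Bid, Bbc3 and Pmaip1, all of which stayed uncalled.

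The groups compared with T lineage cells also differed widely in the transcripts of other cell types. Over all probesets 7.66% rose and 10.4% fell in T lineage against wildtype LN cells. Of 7 measured dendritic cell markers 7 fell in T lineage against wildtype LN cells, and their summed log2 level was 42.0 to 43.4 in T lineage, 70.6 to 72.4 in deficient LN and 72.1 to 73.9 in wildtype LN cells. Of 9 myeloid markers 7 fell and 0 rose (58.7 to 60.7 in T lineage, 80.8 to 81.0 in deficient LN and 80.3 to 86.6 in wildtype LN cells). Of 7 T lineage markers, the sorted Thy1 and Il2ra included, 7 rose (64.7 to 69.2 in T lineage, 45.4 to 45.9 in deficient LN and 45.6 to 47.0 in wildtype LN cells). Of 5 B lineage markers 1 fell, of 6 NK and innate lymphoid markers 2 rose and 1 fell, of 6 erythroid, megakaryocyte and mast cell markers 2 rose and 1 fell, and 0 of 7 OP9 stromal markers passed, all against wildtype LN cells. In the comparison of T lineage with deficient LN cells the stromal marker Sparc passed too (-0.54, adjusted p = 0.0021), and between the genotypes it was 0.54 higher in deficient LN cells without passing (adjusted p = 0.0997). The 1 probeset that passed between the genotypes was that of Il2ra, a T lineage marker, 1.02 lower on the log2 scale in deficient LN cells (adjusted p = 0.0283). No probeset, Il2ra included, passed there without deficient array 3 or wildtype LN array 3, with all probesets tested or with a replicate block. The part of these cells in the Bcl2 family differences was not tested.

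Other Bcl2 family genes were measured for 13 of the 16 listed, and 1 rose and 2 fell in T lineage against wildtype LN cells, with a median difference of -0.09 beside 0.04 over all probesets. The shares over all probesets were 7.66% higher and 10.4% lower. Bcl2a1c, a copy in the A1 gene group, stood at 5.06 and 5.05 in T lineage cells, 6.34, 5.99 and 6.31 in deficient LN cells, and 6.12, 6.33 and 6.41 in wildtype LN cells. All its levels lay below the array medians of 6.85 to 6.91, and no detection call was used. Its T lineage arrays were far below all LN arrays, a fall of 1.23 on the log2 scale (adjusted p = 4.15e-05) against wildtype and of 1.16 (adjusted p = 7.87e-05) against deficient LN cells. The A1 genes of the mouse are near-identical copies, so this probeset may not separate them, and Bcl2a1a, Bcl2a1b and Bcl2a1d were not analysed here. Bcl2l14 (Bcl-G) rose by 0.54 (adjusted p = 0.00239) against wildtype and by 0.42 (adjusted p = 0.0127) against deficient LN cells, the second being 0.26 (adjusted p = 0.129) without T lineage array 1. Bcl2l15, a family member of little known role, fell by 0.32 (adjusted p = 0.0359) against wildtype LN cells. That call was lost without wildtype LN array 2 or 3 or either T lineage array (-0.32 to -0.27, adjusted p 0.0967 to 0.137), with all probesets tested (0.0776) and with a replicate block (0.0667). Without T lineage array 2, 2 genes of the list rose. Between the LN genotypes 0 of 13 passed, also at an unadjusted p under 0.05, and the smallest p was that of Bik, a BH3-only gene (-0.14, adjusted p = 0.999). By limma 0.00459% of all probesets passed there and 4.92% had an unadjusted p under 0.05.

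**Figure D3:**
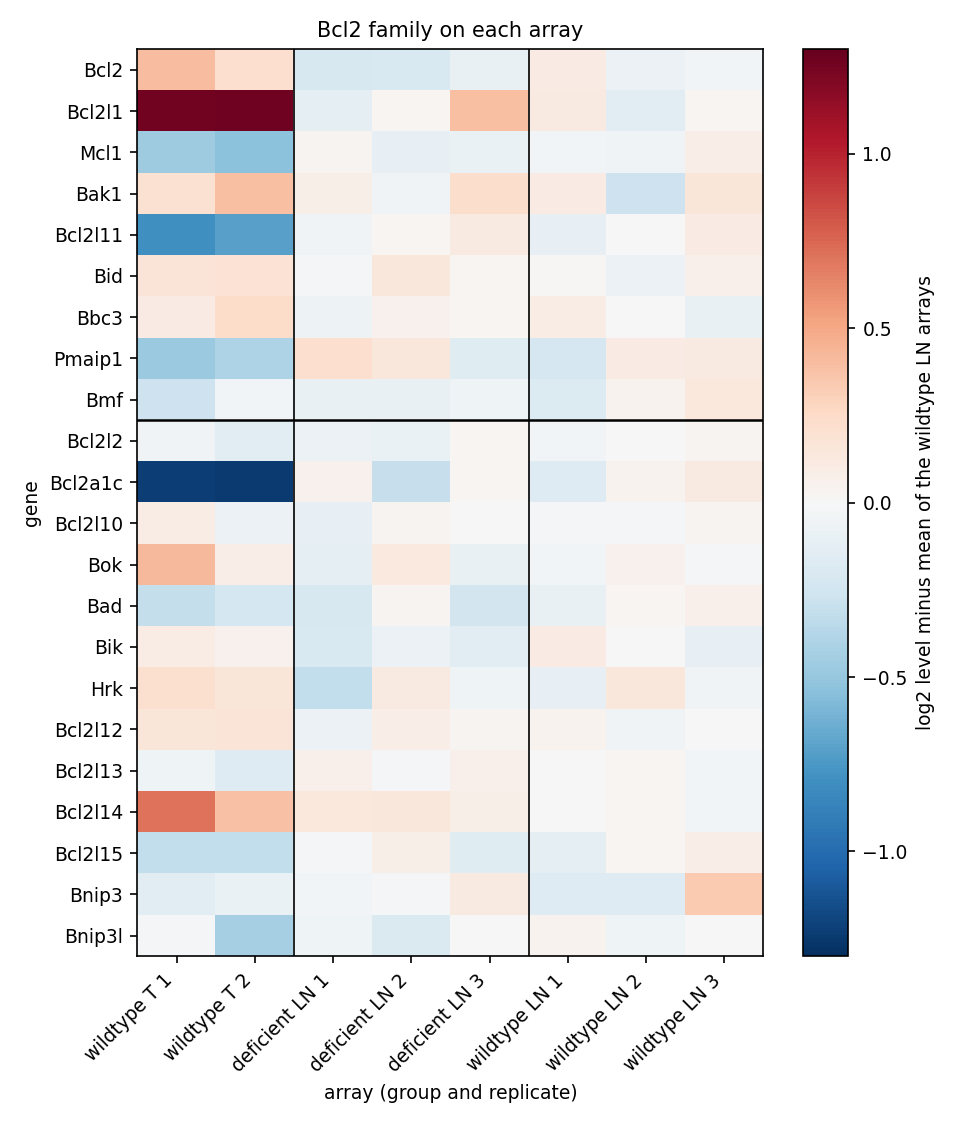
Log2 level of the 9 genes (above the line) and the 13 other Bcl2 family genes (below it) on each array, minus the mean of the 3 wildtype LN arrays (colour). Columns are arrays in the order T lineage, deficient LN, wildtype LN. The deepest colours are those of Bcl2l1 (higher) and Bcl2a1c (lower) on both T lineage arrays.

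Downstream of the mitochondria, the apoptosome and caspase list had 1 gene higher and 4 lower of 13 in T lineage against wildtype LN cells (median 0.04). The shares over all probesets were 7.66% higher and 10.4% lower. The fallen genes stand on both sides of caspase control. They were Apaf1, the scaffold of the apoptosome (-0.66, adjusted p = 0.00115), Casp6, an executioner caspase (-0.75, 0.000931), and the caspase antagonists Birc3 (-0.96, 0.000683) and Xiap (-0.54, 0.00398), the last named beyond the rule after its value was seen. Htra2, a mitochondrial protease that counters such antagonists, rose by 0.45 (adjusted p = 0.00268). No alternative ended these 5 calls. Against deficient LN cells the list had 1 higher and 4 lower too, where 5.98% of all probesets were higher and 8.16% lower. The same 5 genes passed there, and without T lineage array 2 the difference of Htra2 was 0.34 (adjusted p = 0.0696) in place of 0.40 (0.00693), and that of Xiap -0.46 (0.0526) in place of -0.53 (0.00521).

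Among regulators of the BH3-only genes and Mcl1, 1 of 14 rose and 2 fell against wildtype LN cells (median 0.01). The shares over all probesets were 7.66% higher and 10.4% lower. Mapk8, the kinase JNK1, fell by 0.59 (adjusted p = 0.000662), which no alternative ended. Foxo1, a forkhead factor, fell by 0.47 (adjusted p = 0.0157), and Dynll2, the dynein light chain known to hold Bmf, rose by 0.49 (adjusted p = 0.0136). The call of Foxo1 was lost without wildtype LN array 2 (-0.44, 0.0524) or T lineage array 2 (-0.26, 0.148) and with all probesets tested (0.0519). That of Dynll2 was lost without T lineage array 2 (0.40, 0.113). Foxo3, the forkhead factor best known upstream of Bcl2l11, was measured but did not pass (0.25, adjusted p = 0.18), and it is named beyond the rule after its value was seen. Of the 14 genes 0 rose against deficient LN cells and 1 fell, Mapk8 (-0.59, adjusted p = 0.00082). Over all probesets 5.98% rose and 8.16% fell there.

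In the death receptor pathway 3 of 11 genes rose and 2 fell against wildtype LN cells (median 0.11). The shares over all probesets were 7.66% higher and 10.4% lower. Tnfsf10, the death ligand TRAIL, stood at 9.43 and 8.70 in T lineage cells, 7.22, 7.07 and 6.99 in deficient LN cells, and 6.82, 6.80 and 6.93 in wildtype LN cells. The T lineage arrays lay above all others, 2.21 higher on the log2 scale than wildtype LN cells (SE 0.17, adjusted p = 7.94e-06). The cytokine Tnf rose by 0.93 (adjusted p = 1.61e-05), and the TRAIL receptor Tnfrsf10b rose by 0.49 (adjusted p = 0.0104), a call lost without T lineage array 2 (0.34, 0.108). Tnfrsf1a, a receptor of Tnf, fell by 0.56 (adjusted p = 0.0178), and Cflar, which blocks caspase-8, fell by 0.29 (adjusted p = 0.017) by the brightest of its 3 probesets, while the other 2 did not pass (-0.12, adjusted p = 0.423, and -0.11, adjusted p = 0.405). The call of Tnfrsf1a was lost without wildtype LN array 1 or 3 or T lineage array 1 (-0.51 to -0.45, adjusted p 0.0572 to 0.124) and with all probesets tested (0.0621). That of Cflar was lost without wildtype LN array 2 or 3 or either T lineage array (-0.32 to -0.26, adjusted p 0.0527 to 0.116). When set against deficient LN cells, 2 of the 11 rose and 1 fell (median 0.05), and Tnfsf10 rose there by 1.97 (adjusted p = 2.35e-05). The gene that fell was Tnfrsf1a (-0.57, adjusted p = 0.0199). That call was lost without deficient array 1 (-0.56, 0.0569) or 3 (-0.52, 0.0602), without T lineage array 1 (-0.49) and with all probesets tested (0.073). Over all probesets 5.98% rose and 8.16% fell there.

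The list named for interleukin-7 receptor survival signalling also held the receptors Kit and Flt3, while Il2rg and Jak3 were not analysed here. Of its 13 measured genes 6 rose and 2 fell against wildtype LN cells (median 0.33). The shares over all probesets were 7.66% higher and 10.4% lower. Pim1, a kinase induced by cytokine signalling, rose by 0.58 (adjusted p = 0.000507), Kit, the stem cell factor receptor, by 0.58 (0.00546) and Akt1, a survival kinase, by 0.58 (0.012). The other 3 that rose, named after their values were seen, were the cytokine receptor kinase Jak1 (0.53, 0.00212), its target factor Stat5a (0.50, 0.00259) and the feedback inhibitor Cish (0.53, 0.00175). The genes that fell were Flt3 and Il7r. Flt3, which is also among the dendritic markers and whose ligand was in the culture, stood at 6.30 and 6.75 in T lineage cells, 10.40, 10.23 and 10.26 in deficient LN cells, and 10.45, 10.47 and 10.65 in wildtype LN cells, a fall of 4.00 on the log2 scale against wildtype LN cells (adjusted p = 2.7e-08). Il7r, the receptor chain for interleukin-7, stood at 9.42 and 8.66 in T lineage cells, 9.85, 9.57 and 9.45 in deficient LN cells, and 9.74, 10.14 and 10.09 in wildtype LN cells. It fell by 0.95 (adjusted p = 0.00806), a call that rested on T lineage array 2 (-0.57, adjusted p = 0.0698 without it). Without that array Kit (0.47, 0.0601) and Akt1 (0.47, 0.103) did not pass either. In the comparison with deficient LN cells 4 of the 13 rose (Jak1, Stat5a, Pim1 and Cish) and 1 fell (Flt3), with a median of 0.27. Over all probesets 5.98% rose and 8.16% fell there. Kit (0.23, adjusted p = 0.256), Akt1 (0.40, 0.0771) and Il7r (-0.58, 0.0904) did not pass against deficient LN cells.

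Of 13 mitochondrial outer membrane and fission genes 1 rose and 0 fell against wildtype LN cells (median 0.03). It was Vdac1, a channel of the outer membrane, higher by 0.65 (adjusted p = 0.00288). Over all 6 lists, each gene counted once, 13 of 77 genes rose and 12 fell against wildtype LN cells, where 7.66% of all probesets rose and 10.4% fell. With single arrays left out, 10 to 14 rose and 8 to 13 fell. Against deficient LN cells 9 of the 77 rose and 8 fell, where 5.98% of all probesets rose and 8.16% fell. Vdac1 rose there by 0.46, a call lost without deficient array 1 or 2 or either T lineage array (0.41 to 0.49, adjusted p 0.0628 to 0.121) and with all probesets tested (0.0773). Between the LN genotypes 0 of 77 passed with limma and 3 had an unadjusted p under 0.05. Over all probesets 0.00459% passed there and 4.92% had an unadjusted p under 0.05. The gene of smallest p in each of the lists not yet described between the genotypes was Fasl, a death ligand (0.63, adjusted p = 0.831), Kit (0.36, 0.701), the caspase Casp2 (0.15, 0.999), the ubiquitin ligase component Fbxw7 (-0.13, 0.999) and Vdac1 (0.19, 0.999).

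**Figure D4:**
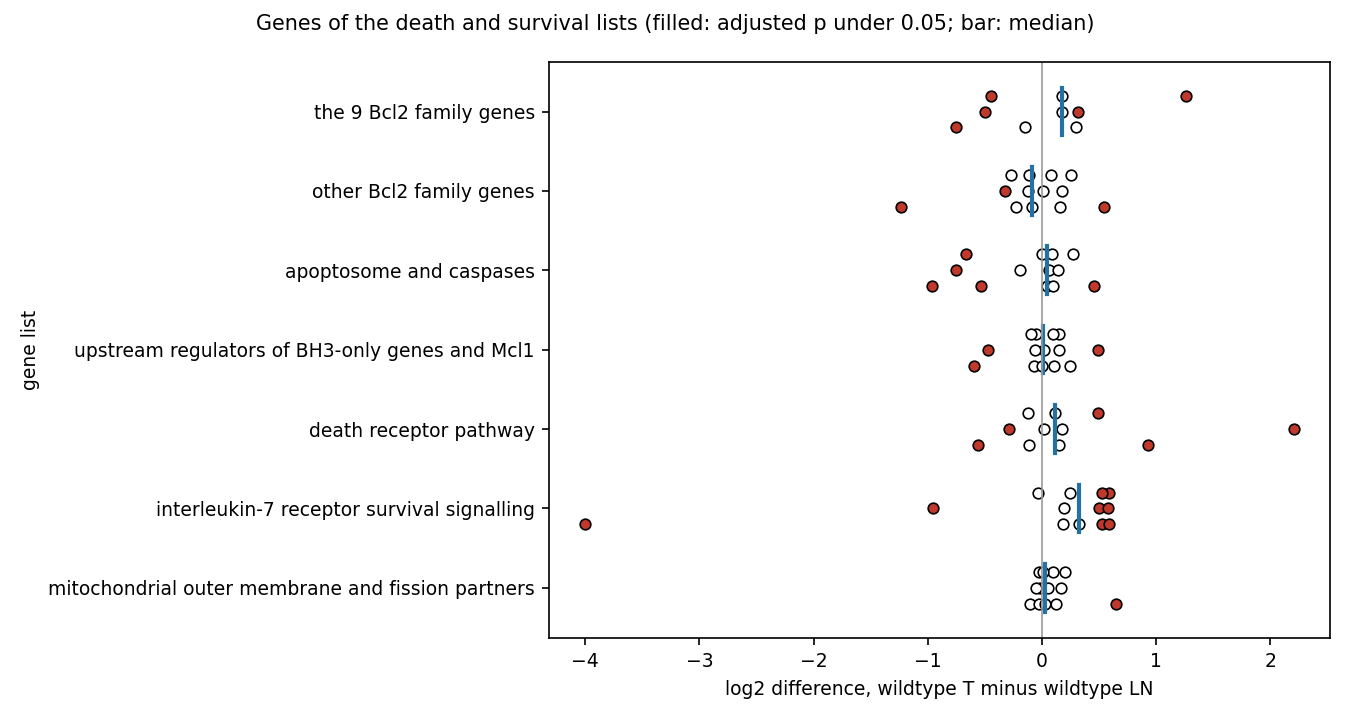
Log2 difference, T lineage minus wildtype LN (horizontal axis), of the 9 genes and of the genes of 6 lists (rows). Points are genes, filled where they passed the test, and bars are medians. The medians lie between -0.09 and 0.33, Tnfsf10 is the point furthest to the right at 2.21 and Flt3 the one furthest to the left at -4.00.

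The genes whose levels ran most like those of the main members were found by Pearson's r over the 8 arrays, given as a description. For Bcl2l1 they were Heatr3 (r = 0.997), Ttc7b (0.997) and Mthfd1 (0.994). For Bcl2l11 they were Sptlc2 (0.994), Cln8 (0.994) and Anxa3 (0.993). For Bcl2 they were Cracd (0.984), Dlg3 (0.982) and Cdan1 (0.974). The 8 arrays fall into T lineage and LN arrays and share 1 normalization. Over the 6 LN arrays alone the same 9 correlations lay between 0.858 and 0.970. The genes were chosen for the highest r over all 8 arrays, these 6 included. The LN range is therefore not a separate check, and it cannot show whether the likeness holds apart from the choice.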

How the data were processed

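Expression was measured on 8 arrays in 3 groups named in the titles. Each array took 10 ng of total RNA, amplified over the whole transcript and tagged with biotin, per the labels' protocols. The deposited values are on a log2 scale (read from their range) and were made by the authors with RMA in Partek 6.5, per the submitters' processing notes. Array medians were 6.85 to 6.91, and arrays of a group correlated with r of 0.995 to 0.997 across probesets. The number of arrays limits the precision, and no detection call was used.

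Of 35399 probesets, 11989 with no gene and 1621 with more than 1 gene in the annotation table were left out. Symbols were updated through the gene ID, which matched RefSeq for 21698 probesets. limma 3.58.1 in R 4.3.3 (lmFit, eBayes) fitted all 8 arrays as 3 groups with 5 residual degrees of freedom and no covariate. The fit was run on simulated data with normal noise of the same spread in all groups, which cannot test how it handles unequal spread. Genes with several probesets are given by the one with the highest mean. The 10 members, the 6 lists (88 symbols, 77 measured) and the markers were chosen with earlier results of these data known. All members were to be named, with up to 3 called genes a direction from each list, the gene of smallest p between the LN genotypes, and the 3 of highest r for Bcl2, Bcl2l1 and Bcl2l11. The alternatives were 9 other settings and leaving out each array in turn. LN arrays are from 3 mice of each genotype, per the design text. The T lineage arrays are named biological replicates without a stated source, so the spread between them may be technical. The p-values rest on a spread estimated jointly over the 3 groups, to which the T lineage arrays add little. Genotype labels were not checked against the deleted gene's own transcript, which is not reported here.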

Additional observations from a re-analysis of the deposited data

How the results depend on the processing

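The calls of Bcl2l1, Mcl1 and Bcl2l11 in T lineage cells held under all 17 alternatives run, against wildtype LN cells (log2 differences 1.19 to 1.34, -0.53 to -0.46 and -0.81 to -0.70) and against deficient LN cells (1.05 to 1.31, -0.48 to -0.40 and -0.83 to -0.74). Between the LN genotypes 0 of the 9 genes passed under any of them. Taking the probeset of smallest p, 1 of the 17, could not change the result of a member, as each had 1 probeset. The number of members that rose against wildtype LN cells was 1 with all probesets tested, 1 with only the compared groups fitted, and 1 to 2 when single arrays were left out. Against deficient LN cells it was 1 to 2 when single arrays were left out, and it was 1 without T lineage array 1. Wherever the number that rose was 1, the gene that had lost its call was Bcl2. The number of fallen members was smaller wherever Pmaip1 lost its call, as with all probesets tested in both T lineage comparisons. Why these calls were lost was not tested.

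Over all probesets, calls between the LN genotypes numbered 3 with a second quantile normalization, 7 with median centring, 2 with only the compared groups fitted, 11 with a trend and robust prior and 6 with array weights. They numbered 0 with all probesets tested (1512 at an unadjusted p under 0.05) and 0 with a replicate block (1091), and 0 to 12 when single arrays were left out. The sign between the genotypes turned for Pmaip1 with array weights (-0.0047). With single arrays left out, the range was -0.041 to 0.18 for Pmaip1, -0.043 to 0.21 for Bcl2l1, -0.047 to 0.17 for Bak1, -0.022 to 0.085 for Bcl2l11, -0.00076 to 0.086 for Bid and -0.042 to 0.052 for Bbc3. For Bmf in T lineage minus deficient LN cells it was -0.18 to 0.046.

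The labels do not say that replicate numbers pair the arrays, so the numbers were not taken as pairs. Deviations of same-numbered arrays correlated with r of 0.16 and 0.12 between T lineage and wildtype LN cells (2 pairs), and -0.14 and -0.25 between T lineage and deficient LN cells. Between deficient and wildtype LN cells r was -0.13, 0.02 and 0.04. The deviations of the 2 T lineage arrays mirror each other, so the r values that involve them cannot show whether numbers mark pairs. With the replicate block, Pmaip1 (-0.47, adjusted p = 0.0586) and Bcl2l15 lost their calls against wildtype LN cells, and Il2ra lost its call between the LN genotypes. No other named call was lost. After a second quantile normalization 2174 probesets were higher and 2006 lower in T lineage than in wildtype LN cells, in place of 1670 and 2258, with a median shift of 0.02. Bbc3 and the list genes Bcl2a1c, Bcl2l15 and Tnfrsf10b were not tested when the dimmest 40% of probesets were left out. A group left with 1 array was assumed to vary like the others.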
